A study of Mus musculus with 9 samples.

Results

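The genes described here encode the enzymes that place and remove methyl groups on histone lysines, protein arginines and DNA, with 1 inactive partner of the DNA methyltransferases. They were chosen by name alone, as the protein-coding genes of the Kdm, Kmt, Setd, Prmt, Ezh, Suv39h, Dnmt and Tet families, which gave 54 members among 24187 genes, 15905 of them protein-coding. Of the 54 members, 33 are counted as methyltransferases, 20 as demethylases (17 Kdm genes and 3 Tet genes) and 1, Dnmt3l, as a methyltransferase cofactor. All 54 were listed in both deposited tables and were tested in every comparison. In 52 of the 54 the mean over the 9 libraries was at least 30 reads, and Kdm4d and Tet1 lay below this. A family name does not fix the activity, since Setd3 methylates a histidine of actin and methyltransferase activity of Setd5 and Kmt2e is debated.

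Methyltransferases transfer a methyl group from S-adenosylmethionine, the methyl donor that the methionine cycle makes from methionine and ATP. Demethylases of the Jumonji C kind and the Tet dioxygenases use oxygen, iron and alpha-ketoglutarate, whereas Kdm1a and Kdm1b are amine oxidases that use FAD. In macrophages, lipopolysaccharide (LPS), a part of the outer membrane of Gram-negative bacteria that is sensed by Toll-like receptor 4, is known for inducing Kdm6b, a demethylase of trimethylated lysine 27 of histone H3 (H3K27), the mark placed by the Polycomb enzymes Ezh1 and Ezh2.

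The libraries are bulk RNA-seq of bone-marrow-derived macrophages, cells grown from the marrow of 8-week-old C57BL/6 mice in 10 ng/ml M-CSF for 6 days. There were 3 libraries of cells given 500 ng/ml LPS with 50 µM NCT503 for 6 h, 3 of cells given 500 ng/ml LPS for 6 h, and 3 of control cells kept in complete medium for 6 h. NCT503 inhibits PHGDH, the first enzyme of serine synthesis from a glycolytic intermediate, and serine supplies carbon units to the methionine cycle. NCT503 without LPS is not among the groups, and the labels name neither a vehicle for the control nor separate mice or cultures for the replicates, so that p-values measure only the spread between these libraries.

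Library totals were 20295862 to 23599685 reads over the genes of both tables. The median-of-ratios factors were 0.924 to 0.981 for LPS with NCT503, 0.733 to 0.868 for LPS and 1.25 to 1.46 for control, so at a like total an LPS library was scaled up against a control library. All 9 macrophage markers were detected, and Csf1r, the M-CSF receptor, averaged 38411 normalized reads in LPS with NCT503, 36258 in LPS and 35850.0 in control. Of these 9 markers 4 were higher and 1 lower with LPS, and none was higher and 5 were lower with NCT503 than in LPS. Their summed level was 204903 to 262187 normalized reads in LPS with NCT503, 394244 to 455571 in LPS and 285764 to 366472 in control. Marker lists of other cells moved too, where 41.8% of all genes tested were called with LPS and 32.6% with NCT503 against LPS. With LPS, 3 of 5 dendritic cell markers (median log2 fold change 1.90) and 4 of 6 stromal markers (1.74) were higher and none lower. The 5 dendritic cell markers summed to 217 to 366 normalized reads in LPS with NCT503, 653 to 814 in LPS and 87.3 to 122 in control. With NCT503, 6 of 6 tested neutrophil markers, 5 of 5 mast cell and basophil markers, 3 of 5 T and NK cell markers and 3 of 6 stromal markers were lower than in LPS. Summed, the 6 neutrophil markers gave 237 to 497 normalized reads in LPS with NCT503, 2378 to 5750 in LPS and 3954 to 6798 in control, and the 5 mast cell and basophil markers gave 187 to 205, 2213 to 3291 and 1378 to 2147. The 6 stromal markers, led by Col1a1, gave 15079 to 38358, 14843 to 31664 and 5152 to 23065, and their part and that of the other marker lists in the values below was not tested. In bulk libraries, fewer cells of a type and less RNA per cell cannot be told apart.

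The starts of 4 member genes are shown because, of the 45 members with a promoter in RefSeq, these hold a word searched for in genes that follow the cell cycle (an E2F word, TTTGGCGC or TTTCCCGC) or amino acid stress (an ATF4 composite word, TGATGNAA). Each window runs from 250 bases before to 50 bases after a transcription start in GRCm38.p6, is printed 5′ to 3′ on the gene's strand, and has every searched word in capitals, including the CCAAT box, the cell-cycle element TTTGAA and the kappaB start GGGNNNTTC, on either strand. Dnmt1, the maintenance DNA methyltransferase, has 3 windows, of which that at chr9:20952574-20952873 on the minus strand holds an E2F word. Ezh2 is shown at chr6:47594981-47595280 on the minus strand, Kmt5c at chr7:4739877-4740176 on the plus strand and Kdm1a at chr4:136602674-136602973 on the minus strand.
Dnmt1: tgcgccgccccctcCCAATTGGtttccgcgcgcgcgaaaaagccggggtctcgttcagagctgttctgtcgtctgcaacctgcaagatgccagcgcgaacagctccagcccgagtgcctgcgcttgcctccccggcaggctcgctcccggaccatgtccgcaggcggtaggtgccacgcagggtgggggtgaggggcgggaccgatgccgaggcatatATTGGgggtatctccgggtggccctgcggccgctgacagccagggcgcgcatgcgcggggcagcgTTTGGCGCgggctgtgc
Ezh2: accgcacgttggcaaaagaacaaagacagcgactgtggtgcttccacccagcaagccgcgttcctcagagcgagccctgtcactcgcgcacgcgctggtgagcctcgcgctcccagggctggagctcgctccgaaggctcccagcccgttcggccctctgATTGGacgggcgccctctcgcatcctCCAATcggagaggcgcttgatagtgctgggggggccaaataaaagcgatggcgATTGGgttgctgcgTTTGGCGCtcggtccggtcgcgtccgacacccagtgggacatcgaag
Kmt5c: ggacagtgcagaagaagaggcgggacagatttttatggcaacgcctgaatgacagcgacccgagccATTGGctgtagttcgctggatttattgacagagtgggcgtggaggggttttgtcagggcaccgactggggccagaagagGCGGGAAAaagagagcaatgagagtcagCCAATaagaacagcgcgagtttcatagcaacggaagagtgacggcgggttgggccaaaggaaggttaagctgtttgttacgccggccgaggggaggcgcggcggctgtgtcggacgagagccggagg
Kdm1a: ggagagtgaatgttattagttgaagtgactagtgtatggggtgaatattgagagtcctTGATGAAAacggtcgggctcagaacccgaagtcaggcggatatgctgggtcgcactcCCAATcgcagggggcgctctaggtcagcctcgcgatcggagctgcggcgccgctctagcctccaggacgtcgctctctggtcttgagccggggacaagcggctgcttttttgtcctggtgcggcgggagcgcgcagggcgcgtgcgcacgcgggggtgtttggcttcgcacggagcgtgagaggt

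Of the 62 windows of the 45 matched members, only 2 held TTTGGCGC (3.23%), against 0.514% of 32851 RefSeq windows. TTTCCCGC was found in 1 of them (1.61%), against 1.07%. CCAAT stood in 41.9% of member windows against 37.4% of all windows, TTTGAA in 9.68% against 17.9%, GGGNNNTTC, the first bases of a kappaB site, in 16.1% against 14%, and TGATGNAA in 1.61% against 3.97%. The member windows had a median GC content of 62.7% and a median of 23.5 CpG dinucleotides, against 52.7% and 7 over all windows. A match is a description of these letters only. No window was matched for Dnmt3c, Kdm2a, Kdm3b, Kdm4b, Kdm5a, Kdm6b, Kmt2b, Kmt2e and Setd1b.

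LPS against control was the first comparison. With LPS, the germ-line DNA methyltransferase Dnmt3c, the H3K27 demethylase Kdm6b, the H3K9 methyltransferase Setdb2, the cofactor Dnmt3l and the H4K20 methyltransferase Kmt5a had the largest rises, and Kdm1b, Setd7, Prmt7 and Kmt5c the largest falls. Of the 54 members, 18 were higher, 18 were lower and 18 did not pass the test (limma on log2(normalized reads + 1), adjusted p under 0.05 over all genes tested). That is 66.7% of members, where 41.8% of all 19975 genes tested were called (20.5% higher and 21.4% lower) and 56.7% of the 11586 genes with a mean of at least 30 reads. Of 33 methyltransferases 9 were higher and 14 lower, and of 20 demethylases 8 were higher and 4 lower. The library groups did not overlap for 39 of 54 members (72.2%), against 50.8% of all genes tested and 63.8% of those with a mean of at least 30 reads. Scaling to total reads, which moved the median of all genes by -0.63 on the log2 scale, gave 8 higher and 27 lower members in place of 18 and 18 (all genes 2092 higher and 8536 lower in place of 4089 and 4266). Changes are therefore relative to the typical gene, and the rises that passed under both scalings were those of Kdm6b, Setdb2, Dnmt3l, Kmt5a, Dnmt3c, Kdm4a, Prmt2 and Setd1b.

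LPS with NCT503 against LPS was the second comparison, and it shares the LPS libraries with the first. The de novo DNA methyltransferases Dnmt3a and Dnmt3b, the arginine methyltransferases Prmt9 and Prmt3, the H3K4 methyltransferase Setd7 and the H3K9 demethylases Kdm3a and Kdm4c were among the largest rises. Dnmt3c, Setd1b, Kdm8, Kmt5c, Tet3 and Kdm3b were among the largest falls. Of the 54 members, 15 were higher, 11 lower and 28 not called, which is 48.1% against 32.6% of 19795 genes tested (16.9% higher and 15.7% lower) and 45.3% of genes with a mean of at least 30 reads, so the members' share was near that of genes of their depth. Of 33 methyltransferases 9 were higher and 8 lower, and of 20 demethylases 6 were higher and 3 lower. Groups did not overlap for 28 of 54 members (51.9%), against 44.9% of all genes tested and 57.1% of those with a mean of at least 30 reads. The number of calls depended on single libraries. There were 8 higher and 7 lower without LPS replicate 3 or without LPS with NCT503 replicate 3, 8 and 8 without LPS with NCT503 replicate 1, 10 and 9 without LPS replicate 2, 14 and 10 without LPS replicate 1, and 19 and 10 without LPS with NCT503 replicate 2. The share of all genes called also changed in these settings. Against 32.6% with all libraries, it was 22% without LPS with NCT503 replicate 3, 23.1% without LPS replicate 3, 24.3% without LPS replicate 2, 25% without LPS with NCT503 replicate 1, 31.8% without LPS replicate 1 and 36.8% without LPS with NCT503 replicate 2. Called methyltransferases numbered 9 without LPS replicate 3 or LPS with NCT503 replicate 3, 10 without LPS with NCT503 replicate 1 and 11 without LPS replicate 2, against 17 with all libraries. Scaled to total reads, 16 members were higher and 7 lower (all genes 4405 and 2137, in place of 3351 and 3098).

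LPS with NCT503 against control was the third comparison, on libraries normalized together. Kdm6b, Dnmt3c, Kdm3a, Kmt5a, Kdm7a, Dnmt3l and Setdb2 were higher than in control and Kmt5c, Kdm8, Setdb1, Kdm2b and Prmt7 were lower. Here 18 members were higher, 15 lower and 21 not called, which is 61.1% against 40.4% of 19930 genes tested (20.7% higher and 19.7% lower) and 54.6% of those with a mean of at least 30 reads. Of the methyltransferases 9 were higher and 9 lower, and of the demethylases 8 were higher and 6 lower. Groups did not overlap for 40 of 54 members (74.1%), against 50.2% of all genes tested and 62.4% of those with a mean of at least 30 reads. Scaled to total reads, 15 members were higher and 22 lower (all genes 2452 and 6568, in place of 4134 and 3927). Without LPS with NCT503 replicate 2, 23 members were higher and 15 lower, and the called demethylases numbered 16 in place of 14. The share of all genes called rose as well in that setting, to 45.5% from 40.4%.

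**Figure D1:**
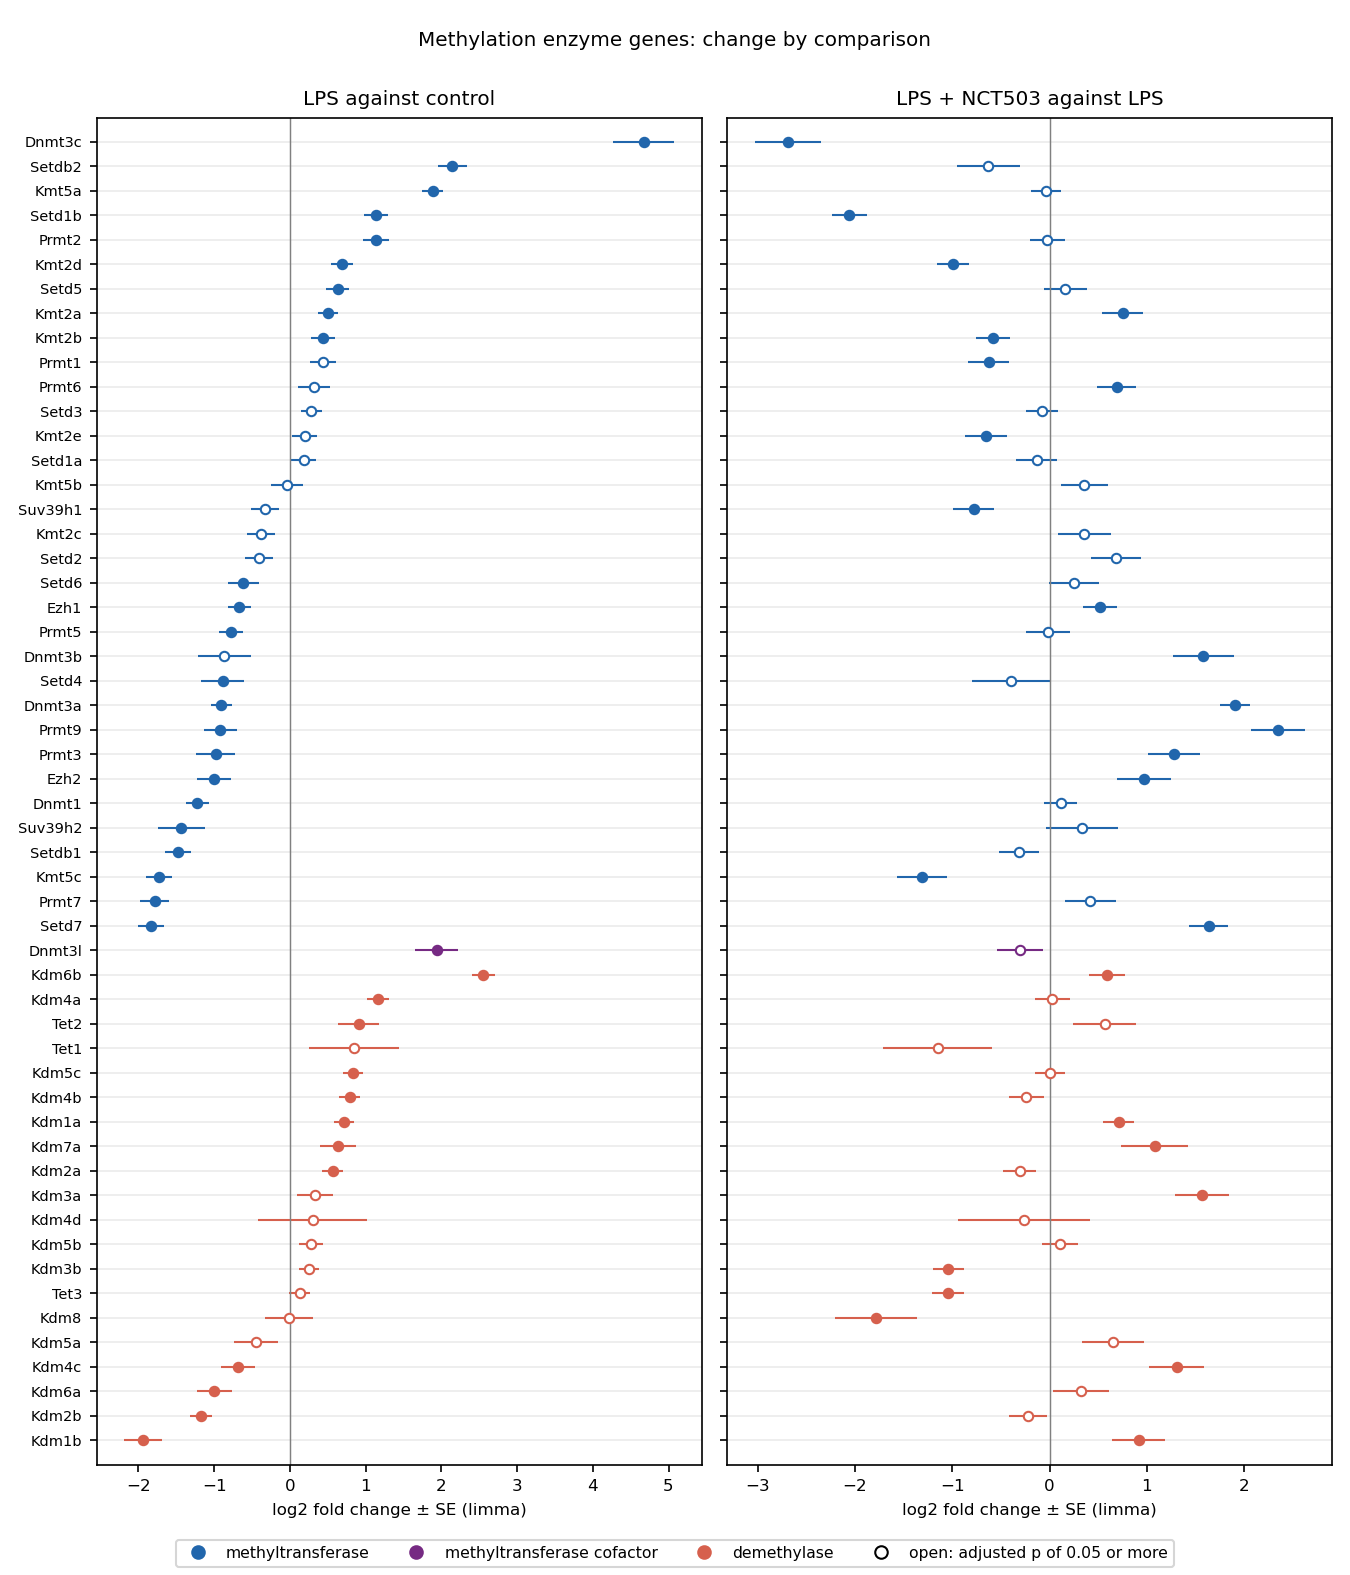
Log2 fold change ± SE of each of the 54 members (x axes) for LPS against control on the left and LPS with NCT503 against LPS on the right, ordered within methyltransferases (blue), the cofactor (purple) and demethylases (red) by the left panel. Filled points passed an adjusted p of 0.05, 36 of 54 on the left and 26 of 54 on the right, and both panels use the same LPS libraries.

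By the calls side by side, 8 of the 18 members that were lower with LPS were higher with NCT503 than in LPS alone (Dnmt3a, Ezh1, Ezh2, Kdm1b, Kdm4c, Prmt3, Prmt9 and Setd7), and 1 was lower again, Kmt5c. Of the 18 that were higher with LPS, 4 were lower with NCT503 than in LPS (Dnmt3c, Kmt2b, Kmt2d and Setd1b) and 4 were higher again (Kdm1a, Kdm6b, Kdm7a and Kmt2a). A high or low value of a shared LPS library enters both comparisons with opposite sign, so these counts are no evidence of opposed responses by themselves. Over all genes tested, 16.9% were higher and 15.7% lower with NCT503 than in LPS. The shares among all genes called with LPS were not computed, so whether the members' counts are unusual is not known. In LPS with NCT503 against control, which does not use those libraries, Dnmt3a and Prmt9 stood higher, Kdm1b lower, and Ezh1, Ezh2, Kdm4c, Prmt3 and Setd7 were not called. The 9 members Kdm4d, Kdm5a, Kdm5b, Kmt2c, Kmt5b, Setd1a, Setd2, Setd3 and Tet1 were called in none of the 3 comparisons.

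Levels were compared between genes per kilobase of exon. In LPS with NCT503 the most abundant members were Kdm6b at 981 ± 173 normalized reads per kb and Kmt5a at 889.7 ± 27.7 (SD, n = 3). In LPS, Kmt5a stood at 916 ± 56.2 and Kdm6b at 646 ± 43 reads per kb. In control, Dnmt1 at 366 ± 39.5 and Kdm5c, an X-linked H3K4 demethylase, at 339 ± 12.6 reads per kb led, and Kdm6b was at 111 ± 17.6. Kdm5c at 602 ± 39.3 in LPS with NCT503 and 601 ± 21.3 in LPS stayed among the most abundant. Tet1 and Kdm4d, an H3K9 demethylase best known from testis, were the least abundant, below 1 read per kb on average in every group. Together the members took 0.259% to 0.306% of reads in LPS with NCT503, 0.215% to 0.253% in LPS and 0.256% to 0.31% in control.

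Kdm6b, at chr11:69398508-69413675 in mm10, was the H3K27 demethylase with the larger change. Kdm6b had 6975, 5549 and 7941 normalized reads in LPS with NCT503, 4215, 4809.8 and 4457 in LPS and 909, 733 and 673 in control. The 3 groups did not overlap, with the control libraries far below the others. Kdm6b rose with LPS (log2 fold change 2.56 ± 0.15, adjusted p = 1.61e-07) and was a little higher with NCT503 than in LPS (0.59 ± 0.18, adjusted p = 0.0267), a call that was lost on leaving out any of 4 libraries, where the adjusted p was 0.0585 without LPS replicate 1, 0.0951 without LPS replicate 3, 0.0869 without LPS with NCT503 replicate 1 and 0.142 without LPS with NCT503 replicate 3. Its antisense neighbour Kdm6bos overlaps 4.11% of its exons and had at most 19.5 normalized reads in a library. Kdm6a, the X-linked H3K27 demethylase, averaged 345 normalized reads in LPS with NCT503, 275 in LPS and 538 in control, and fell with LPS (log2 fold change -0.997 ± 0.23, adjusted p = 0.00415). Against control, Kdm6a was also lower in LPS with NCT503 (-0.68 ± 0.24, adjusted p = 0.047), with adjusted p values of 0.14 without control replicate 1, 0.116 without control replicate 2, 0.0554 without control replicate 3 and 0.0684 without LPS with NCT503 replicate 2. It was not called at -0.68 with a pseudocount of 0.1 (adjusted p = 0.0555), -0.68 with all 9 libraries in 1 fit (adjusted p = 0.057) and -0.68 with edgeR (adjusted p = 0.0536).

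Ezh1 and Ezh2 are the alternative methyltransferase subunits of Polycomb complex PRC2, Ezh2 the form of dividing cells and Ezh1 that of resting cells. Ezh1 had 1133, 921 and 1102 normalized reads in LPS with NCT503, 833, 638 and 739.6 in LPS and 1202, 1161 and 1139 in control. Ezh2 had 160.0, 103 and 189 in LPS with NCT503, 85.2, 62.7 and 76.1 in LPS and 161, 167 and 123 in control. For both, every LPS library lay below every library of the other groups, and Ezh1 was the more abundant by a ratio per kb of 6.53 ± 1.41 in LPS with NCT503, 8.88 ± 0.222 in LPS and 7.07 ± 1.08 in control (SD, n = 3 each). Ezh1 fell with LPS (log2 fold change -0.67 ± 0.15, adjusted p = 0.0038), as did Ezh2 (-0.996 ± 0.22, adjusted p = 0.00375). With NCT503, Ezh1 (0.52 ± 0.18, adjusted p = 0.0451) and Ezh2 (0.97 ± 0.27, adjusted p = 0.0186) were higher than in LPS. For Ezh1 the adjusted p of that rise was 0.147 without LPS replicate 2, 0.124 without LPS replicate 3, 0.151 without LPS with NCT503 replicate 1 and 0.158 without LPS with NCT503 replicate 3, and for Ezh2 it was 0.074 without LPS replicate 2, 0.0556 without LPS replicate 3, 0.0697 without LPS with NCT503 replicate 1 and 0.104 without LPS with NCT503 replicate 3. The rise was not called either at 0.52 with no filter on low values (adjusted p = 0.0534) for Ezh1 and 0.79 quantile normalized (adjusted p = 0.0548) for Ezh2. Against control, the log2 fold changes in LPS with NCT503 were -0.16 for Ezh1 (adjusted p = 0.439) and -0.030 for Ezh2 (adjusted p = 0.936). Ezh1 was called lower than control at -0.61 scaled to total reads (adjusted p = 0.00857) and -0.41 quantile normalized (adjusted p = 0.0355). Summed per kb, the H3K27 methyltransferases stood to the H3K27 demethylases as 0.162 ± 0.0116 in LPS with NCT503, 0.163 ± 0.0295 in LPS and 1.04 ± 0.122 in control, a ratio within each library that does not depend on scaling.

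Members that act on H3K4, a mark of promoters and enhancers, numbered 7 methyltransferases and 5 demethylases. Setd1b, which methylates H3K4 at promoters, had 1098, 1208 and 929 normalized reads in LPS with NCT503, 3959, 5208 and 4363 in LPS and 1845, 2139 and 2156 in control. The 3 groups did not overlap, highest in LPS and lowest in LPS with NCT503. Setd1b rose with LPS (log2 fold change 1.14 ± 0.15, adjusted p = 0.000113), was lower with NCT503 than in LPS (-2.06 ± 0.18, adjusted p = 1e-05) and was lower than in control (-0.93 ± 0.16, adjusted p = 0.000895). Kmt2d, an enhancer methyltransferase, moved likewise in the first comparisons, with log2 fold changes of 0.69 with LPS and -0.99 with NCT503 (adjusted p = 0.000788). Against control it was not called (adjusted p = 0.107, and 0.0413 without LPS with NCT503 replicate 2). It was called lower than control at -0.76 scaled to total reads (adjusted p = 0.00107), -0.80 quantile normalized (adjusted p = 0.000842) and -0.35 with edgeR (adjusted p = 0.0431). The rise of Kmt2d with LPS was not called at -0.016 scaled to total reads (adjusted p = 0.914) and -0.13 quantile normalized (adjusted p = 0.405). Kmt2b, of the MLL group, changed by 0.44 with LPS and by -0.58 with NCT503. The first of these calls was lost in 5 of the 6 settings that left out 1 library (adjusted p 0.103 without control replicate 1, 0.0969 without control replicate 2, 0.0847 without control replicate 3, 0.14 without LPS replicate 2 and 0.0806 without LPS replicate 3), and the second in 4 (adjusted p 0.0968 without LPS replicate 2, 0.067 without LPS replicate 3, 0.0822 without LPS with NCT503 replicate 1 and 0.108 without LPS with NCT503 replicate 3). The first was not called either at 0.34 with TMM scaling (adjusted p = 0.11), -0.26 scaled to total reads (adjusted p = 0.0836) and -0.17 quantile normalized (adjusted p = 0.29). The second was not called at -0.33 scaled to total reads (adjusted p = 0.131) and -0.41 quantile normalized (adjusted p = 0.0756). Against control, Kmt2b in LPS with NCT503 had a log2 fold change of -0.15 ± 0.14, adjusted p = 0.449, and it was called lower at -0.60 scaled to total reads (adjusted p = 0.00379) and -0.54 quantile normalized (adjusted p = 0.00782).

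Kmt2a, the MLL protein, had 3895, 2258 and 3482 normalized reads in LPS with NCT503, 1933, 1853 and 1786 in LPS and 1377, 1299 and 1253 in control. Its groups did not overlap in any comparison, although replicate 2 of LPS with NCT503 lay well below the other replicates of that group. Kmt2a rose with LPS (log2 fold change 0.51 ± 0.13, adjusted p = 0.00943) and again with NCT503 (0.75 ± 0.21, adjusted p = 0.0176). The first of these had an adjusted p of 0.058 without control replicate 2, and the second had 0.0511 without LPS replicate 2, 0.0747 without LPS replicate 3, 0.0841 without LPS with NCT503 replicate 1 and 0.0841 without LPS with NCT503 replicate 3. The first was not called at -0.19 scaled to total reads (adjusted p = 0.282) and 0.043 quantile normalized (adjusted p = 0.817). Relative to the median of genes of like length, the second change was 0.27. Setd7, which monomethylates H3K4 and other proteins, had 745, 613 and 740.3 in LPS with NCT503, 276, 194 and 208 in LPS and 821, 807 and 772 in control. Every LPS library lay below the other 6. Setd7 fell with LPS (log2 fold change -1.83 ± 0.17, adjusted p = 6.34e-06), was higher with NCT503 than in LPS (1.64 ± 0.20, adjusted p = 9.99e-05) and was not called against control (-0.20 ± 0.15, adjusted p = 0.327). It was called lower than control at -0.65 scaled to total reads (adjusted p = 0.00735). Of the others, Setd1a and the enhancer methyltransferase Kmt2c were not called in any comparison, although both were called lower with LPS when scaled to total reads (-0.52 and -1.08), and Kmt2c was called higher with NCT503 without LPS with NCT503 replicate 2 (adjusted p = 0.013). Of Setd1a, 51.8% of exon bases are shared with the annotated gene Gm49388 on the same strand, so the value of Setd1a is uncertain.

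Kdm1a and Kdm1b, the FAD-dependent H3K4 demethylases, differed in direction under LPS. Kdm1a had 1637, 1393 and 1683 normalized reads in LPS with NCT503, 933, 942 and 1002 in LPS and 618, 555 and 586 in control. Its groups were apart in the order control, LPS and LPS with NCT503, with rises of 0.72 ± 0.14, adjusted p = 0.00147 for LPS against control (0.013 and not called scaled to total reads), 0.71 ± 0.16, adjusted p = 0.00658 for LPS with NCT503 against LPS and 1.42 ± 0.15, adjusted p = 3.54e-05 for LPS with NCT503 against control. Kdm1b had 119, 106 and 119 in LPS with NCT503, 85.2, 49.1 and 52.5 in LPS and 271, 239 and 199.5 in control. Every control library lay above every treated one, and LPS libraries were lowest. Kdm1b fell with LPS (log2 fold change -1.94 ± 0.25, adjusted p = 7.78e-05) and was higher with NCT503 than in LPS (0.91 ± 0.27, adjusted p = 0.0223), with adjusted p values of 0.0858 without LPS replicate 2, 0.0871 without LPS replicate 3, 0.0724 without LPS with NCT503 replicate 1 and 0.0852 without LPS with NCT503 replicate 3. The rise was not called at 0.71 quantile normalized (adjusted p = 0.0651). Exons of Dek on the opposite strand cover 9.19% of Kdm1b exons. Kdm5c rose with LPS (0.83, adjusted p = 0.000396), but was not called at 0.13 scaled to total reads (adjusted p = 0.382) and 0.16 quantile normalized (adjusted p = 0.295). Kdm5a and Kdm5b, of the same family, were not called, with log2 fold changes from -0.45 to 0.65. Kdm5a was called lower with LPS at -1.15 scaled to total reads (adjusted p = 0.0308). Without LPS replicate 1 Kdm5a also passed as lower with LPS (adjusted p = 0.0428), and without LPS with NCT503 replicate 2 it passed as higher with NCT503 (adjusted p = 0.0169). With replicate number as a block, Kdm5a passed in both comparisons (adjusted p = 0.00957 and 0.00165).

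**Figure D2:**
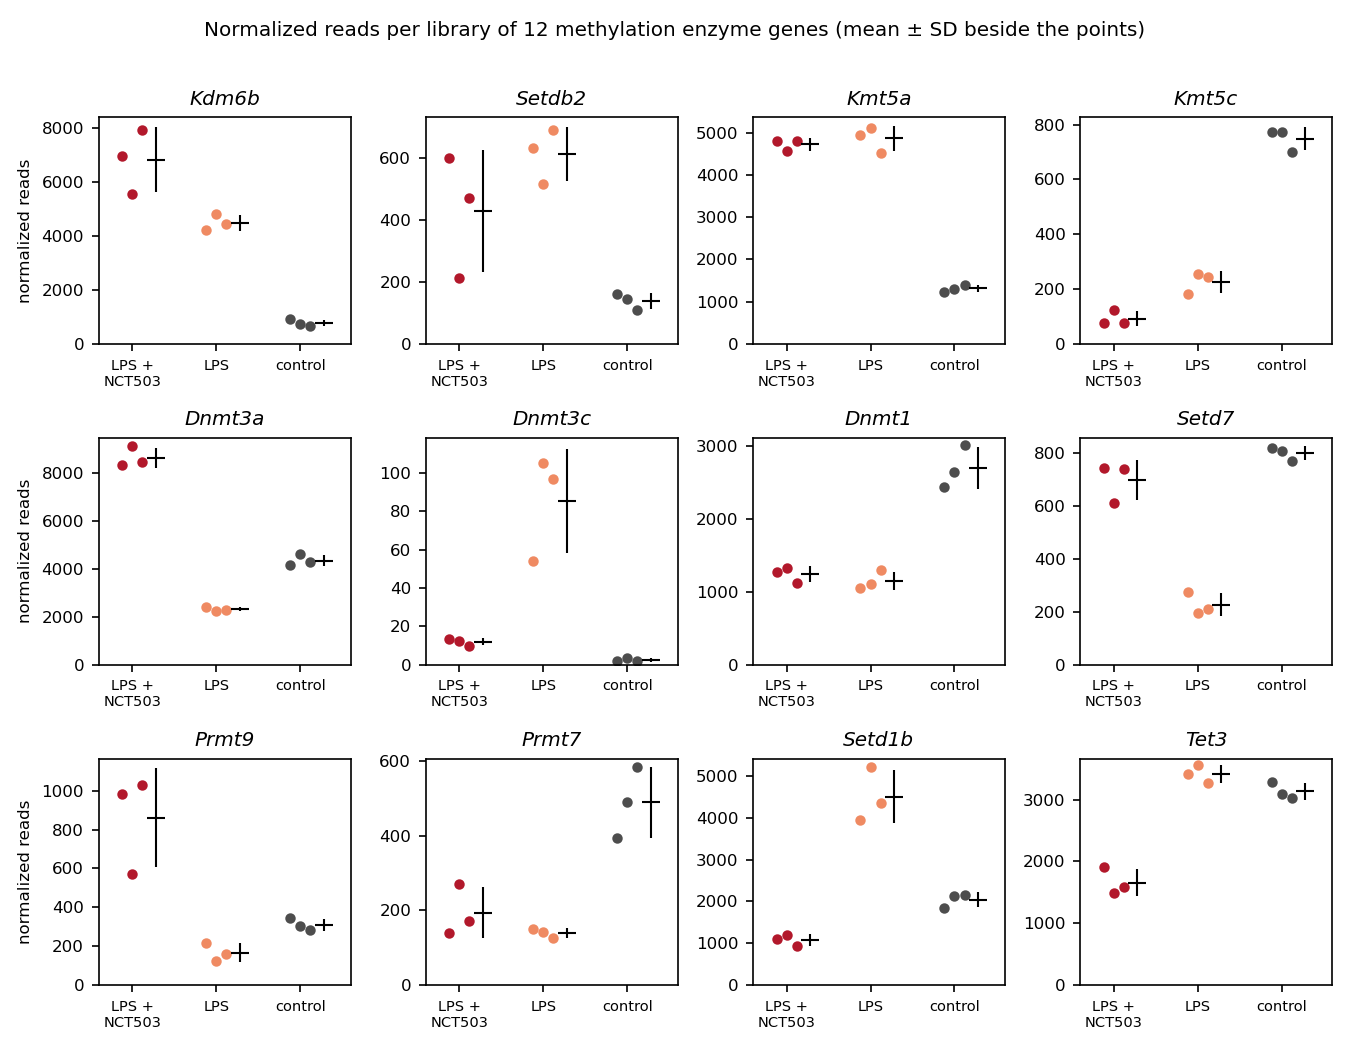
Normalized reads of 12 members in each library (y axes, linear from 0), with LPS with NCT503 on the left, LPS in the middle and control on the right of each panel, points for libraries and crosses for the group mean ± SD (n = 3). Kdm6b is lowest in control, Setd7 and Dnmt3a are lowest in LPS, and Kmt5c is lowest in LPS with NCT503.

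H3K9 methylation marks silent chromatin, and of the 4 H3K9 methyltransferases among the members 1 rose and 2 fell with LPS. Ehmt1 and Ehmt2 lie outside the name rule and are given below. Setdb2, which interferon induces in macrophages, had 600.4, 214 and 473 normalized reads in LPS with NCT503, 635, 518 and 691 in LPS and 161, 146 and 111 in control. Treated libraries all lay above control, and replicate 2 was the low one of LPS with NCT503. Setdb2 rose with LPS (log2 fold change 2.14 ± 0.19, adjusted p = 4.49e-06) and was higher than control with NCT503 as well (1.51 ± 0.34, adjusted p = 0.00614), and it was not called between LPS with NCT503 and LPS (-0.63 ± 0.32, adjusted p = 0.161). With replicate number as a block, Setdb2 passed as lower with NCT503 than in LPS (adjusted p = 0.02). Setdb1, which silences retroelements, had 215, 217 and 188 in LPS with NCT503, 309, 219.6 and 250.5 in LPS and 730.3, 669 and 769 in control. Every control library lay above every treated one. Setdb1 fell with LPS (log2 fold change -1.48 ± 0.17, adjusted p = 3.28e-05) and was not called between LPS with NCT503 and LPS (adjusted p = 0.267), although those groups did not overlap.

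Suv39h1 and Suv39h2 trimethylate H3K9 in heterochromatin. Suv39h1 had 127, 149 and 114 normalized reads in LPS with NCT503, 249, 192 and 232 in LPS and 245, 280.0 and 322 in control. Its libraries of LPS with NCT503 lay below the other 6, and LPS overlapped control at 1 library. Suv39h1 was not called with LPS (-0.33 ± 0.18, adjusted p = 0.184), was lower with NCT503 than in LPS (-0.78 ± 0.21, adjusted p = 0.0154) and was lower than in control (-1.11 ± 0.19, adjusted p = 0.00107). Scaled to total reads, Suv39h1 was called lower with LPS (-1.03, adjusted p = 0.00188) and was no longer called between LPS with NCT503 and LPS (-0.54, adjusted p = 0.111). The call between LPS with NCT503 and LPS was also lost at adjusted p values of 0.0639 without LPS replicate 3, 0.051 without LPS with NCT503 replicate 1 and 0.0796 without LPS with NCT503 replicate 3. Suv39h2 had 28.5, 15.6 and 26 in LPS with NCT503, 21.9, 17.7 and 14.4 in LPS and 62.9, 46.2 and 42.5 in control. Its control libraries lay above every treated library, and it fell with LPS (log2 fold change -1.43 ± 0.31, adjusted p = 0.003) and stood lower than control with NCT503 (-1.10 ± 0.32, adjusted p = 0.0202, and 0.0664 without control replicate 1 and 0.0578 without control replicate 2). Antisense Gm14820 covers 14.6% of Suv39h1 exons and Dclre1c 8.1% of Suv39h2 exons, so reads may be shared there.

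Among the 6 H3K9 demethylases, Kdm3a and Kdm4c were higher with NCT503 than in LPS and Kdm3b was lower. Kdm3a, a gene also known to respond to hypoxia, had 1550.4, 919.8 and 1662 normalized reads in LPS with NCT503, 661, 355 and 389 in LPS and 432, 359.8 and 299 in control. Every library of LPS with NCT503 lay above the other 6, and LPS and control overlapped. Kdm3a was not called with LPS (0.33 ± 0.24, adjusted p = 0.296) and rose with NCT503 (log2 fold change 1.57 ± 0.28, adjusted p = 0.00137). Kdm4c had 537, 297 and 561 in LPS with NCT503, 244, 151 and 159 in LPS and 353, 291 and 239.6 in control, with LPS and control overlapping at 1 library. Kdm4c fell with LPS (log2 fold change -0.68 ± 0.23, adjusted p = 0.0313), with adjusted p values of 0.111 without control replicate 1, 0.0944 without control replicate 2, 0.104 without LPS replicate 2 and 0.123 without LPS replicate 3. This fall was not called at -0.54 quantile normalized (adjusted p = 0.0709) and -0.69 with all 9 libraries in 1 fit (adjusted p = 0.0553). Kdm4c rose with NCT503 against LPS (1.31 ± 0.28, adjusted p = 0.00438). Against control, Kdm4c in LPS with NCT503 was not called (0.62 ± 0.26, adjusted p = 0.0807, and 0.0015 without LPS with NCT503 replicate 2). It passed at 0.65 with DESeq2 (adjusted p = 0.0488). Kdm3b changed by 0.26 with LPS (adjusted p = 0.141; -0.44 scaled to total reads, where it was called lower) and by -1.04 with NCT503 (adjusted p = 0.000474). Exons of the long non-coding gene Gm26538 on the opposite strand cover 24.6% of Kdm3b exons, so reads may be shared there. Kdm4a and Kdm4b rose with LPS by 1.17 (adjusted p = 4.9e-05) and 0.79 (adjusted p = 0.000783, but 0.086 and not called scaled to total reads). Against control, Kdm4b in LPS with NCT503 was higher by 0.54 ± 0.17, adjusted p = 0.0267, with adjusted p values of 0.061 without control replicate 1, 0.103 without control replicate 2, 0.0595 without control replicate 3 and 0.0606 without LPS with NCT503 replicate 1. It was not called at 0.46 with TMM scaling (adjusted p = 0.0529), 0.089 scaled to total reads (adjusted p = 0.692) and 0.41 quantile normalized (adjusted p = 0.0703).

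At H3K36, a mark of transcribed gene bodies, Setd2 places the third methyl group. Setd2 had 1065, 570.2 and 1066 normalized reads in LPS with NCT503, 639, 454 and 538 in LPS and 843, 749 and 587 in control. Replicate 2 of LPS with NCT503 lay within the LPS range and the other 2 replicates above it. Setd2 was called in no comparison with all libraries, with log2 fold changes of 0.68 ± 0.25, adjusted p = 0.0604 for LPS with NCT503 against LPS and -0.41 ± 0.19, adjusted p = 0.0996 for LPS against control. It passed on leaving out 1 library, with adjusted p values of 0.0016 without LPS with NCT503 replicate 2 in the first, 0.0385 without LPS replicate 1 in the second and 0.0151 without LPS with NCT503 replicate 2 between LPS with NCT503 and control. For LPS with NCT503 against LPS it also passed in other settings, at 0.93 scaled to total reads (adjusted p = 0.019), 0.68 with all 9 libraries in 1 fit (adjusted p = 0.0425), 0.77 with edgeR (adjusted p = 0.0391) and 0.73 with DESeq2 (adjusted p = 0.0236). For LPS against control it passed as lower at -0.51 with TMM scaling (adjusted p = 0.0496), -1.11 scaled to total reads (adjusted p = 0.00459) and -0.57 quantile normalized (adjusted p = 0.0329). Of the CpG-island binding demethylases, Kdm2b fell with LPS (log2 fold change -1.17 ± 0.15, adjusted p = 5.81e-05), and Kdm2a rose (0.56 ± 0.14, adjusted p = 0.00627), though it was not called at -0.14 scaled to total reads (adjusted p = 0.476) and 0.046 quantile normalized (adjusted p = 0.812). Neither was called between LPS with NCT503 and LPS. Against control Kdm2b remained lower with NCT503 (-1.40 ± 0.16, adjusted p = 8.15e-05), and Kdm2a was not called (0.25 ± 0.15, adjusted p = 0.216, and 0.0436 without LPS with NCT503 replicate 2).

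Among the H4K20 methyltransferases, Kmt5a rose and Kmt5c fell with LPS. Kmt5a, the monomethyltransferase, peaks in dividing cells, and Kmt5b and Kmt5c add the further methyl groups. Kmt5a had 4811, 4552 and 4801 normalized reads in LPS with NCT503, 4952, 5102 and 4527 in LPS and 1236, 1308 and 1406 in control. Every treated library lay above every control library, and the treated groups overlapped. Kmt5a rose with LPS (log2 fold change 1.89 ± 0.14, adjusted p = 8.17e-07) and did not differ by the test between LPS with NCT503 and LPS (-0.039 ± 0.15, adjusted p = 0.87, 95% interval -0.38 to 0.30). Kmt5c, at chr7:4740115-4747514 in mm10, had 75.4, 124 and 76.8 in LPS with NCT503, 182, 255 and 243 in LPS and 772, 773 and 702 in control. The 3 groups did not overlap and stepped down from control over LPS to LPS with NCT503. Kmt5c fell with LPS (log2 fold change -1.73 ± 0.17, adjusted p = 9.83e-06), was lower again with NCT503 than in LPS (-1.31 ± 0.26, adjusted p = 0.00256) and stood at -3.05 ± 0.21, adjusted p = 2.23e-06 against control. Kmt5b was not called in any comparison with all libraries, although LPS with NCT503 passed as higher than control on leaving out 1 library (adjusted p = 0.0306 without LPS with NCT503 replicate 2). The ratio of Kmt5a to Kmt5c per kb was 41.0 ± 11.5 in LPS with NCT503, 16.6 ± 3.47 in LPS and 1.33 ± 0.159 in control.

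Among members counted under no single mark, Kdm7a, a demethylase of H3K9 and H3K27, had 2102, 798 and 2108 normalized reads in LPS with NCT503, 945, 565 and 703 in LPS and 607, 479 and 347 in control. Its LPS range overlapped the control range at 1 library and the range of LPS with NCT503 through replicate 2 of that group. Kdm7a was called higher with LPS (0.64 ± 0.23, adjusted p = 0.0478), higher with NCT503 than in LPS (1.08 ± 0.34, adjusted p = 0.0323) and higher than in control (1.71 ± 0.38, adjusted p = 0.00775). The first call had adjusted p values of 0.104 without control replicate 2, 0.197 without control replicate 3, 0.149 without LPS replicate 1 and 0.121 without LPS replicate 3, and the second 0.132 without LPS replicate 2, 0.0995 without LPS replicate 3, 0.123 without LPS with NCT503 replicate 1 and 0.136 without LPS with NCT503 replicate 3. The first was not called either at 0.64 with a pseudocount of 0.1 (adjusted p = 0.0654), 0.53 with TMM scaling (adjusted p = 0.102), -0.066 scaled to total reads (adjusted p = 0.871), 0.51 quantile normalized (adjusted p = 0.113), 0.63 with all 9 libraries in 1 fit (adjusted p = 0.18) and 0.58 with edgeR (adjusted p = 0.0803). Kdm8, first described as an H3K36 demethylase, had 16.3, 6.24 and 15.2 in LPS with NCT503, 29.95, 54.5 and 48.5 in LPS and 36.9, 57.4 and 38.5 in control. LPS and control overlapped, and all 3 libraries of LPS with NCT503 were lower. Kdm8 was lower with NCT503 than in LPS (log2 fold change -1.78 ± 0.42, adjusted p = 0.00742) and than in control (-1.81 ± 0.40, adjusted p = 0.0049).

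The other SET domain genes were Setd3, Setd4, Setd5, Setd6 and Kmt2e. Setd5 rose with LPS by 0.63 ± 0.15, adjusted p = 0.00539. Against control it was higher in LPS with NCT503 as well (0.79 ± 0.21, adjusted p = 0.0115, and 0.0521 without LPS with NCT503 replicate 1 and 0.0533 without LPS with NCT503 replicate 3). The first of these was not called at -0.068 scaled to total reads (adjusted p = 0.779) and 0.25 quantile normalized (adjusted p = 0.225). The second was not called at 0.34 scaled to total reads (adjusted p = 0.24) and 0.50 quantile normalized (adjusted p = 0.0575). Setd6, known in human cells for methylating the NF-kappaB subunit RelA, fell with LPS (-0.61 ± 0.20, adjusted p = 0.0306), with adjusted p values of 0.165 without control replicate 2, 0.0839 without control replicate 3, 0.0563 without LPS replicate 1 and 0.059 without LPS replicate 3. That fall was not called at -0.33 quantile normalized (adjusted p = 0.229) and -0.62 with all 9 libraries in 1 fit (adjusted p = 0.0503). Against control, Setd6 in LPS with NCT503 had a log2 fold change of -0.37 ± 0.24, adjusted p = 0.258. It passed as lower at -0.82 scaled to total reads (adjusted p = 0.0237). Setd4, whose activity is less well known, fell with LPS (-0.88 ± 0.28, adjusted p = 0.0262), with adjusted p values of 0.14 without control replicate 2, 0.0621 without control replicate 3 and 0.0708 without LPS replicate 3, and was lower than control with NCT503 (-1.29 ± 0.38, adjusted p = 0.0211, and 0.0872 without control replicate 2, 0.0596 without control replicate 3, 0.0702 without LPS with NCT503 replicate 1 and 0.0557 without LPS with NCT503 replicate 3). The fall of Setd4 with LPS was not called at -0.59 quantile normalized (adjusted p = 0.15) and -0.89 with all 9 libraries in 1 fit (adjusted p = 0.0676). Kmt2e was lower with NCT503 than in LPS (-0.65 ± 0.22, adjusted p = 0.0384), with adjusted p values of 0.107 without LPS replicate 1, 0.0656 without LPS replicate 2, 0.0986 without LPS replicate 3, 0.0731 without LPS with NCT503 replicate 2 and 0.0804 without LPS with NCT503 replicate 3, and Srpk2 exons overlap 9.31% of its own. It was not called there at -0.41 scaled to total reads (adjusted p = 0.196) and -0.59 with edgeR (adjusted p = 0.0517). Against control, Kmt2e in LPS with NCT503 stood at -0.47 ± 0.21, adjusted p = 0.104. It passed as lower at -0.92 scaled to total reads (adjusted p = 0.0094) and -0.67 quantile normalized (adjusted p = 0.0257). Setd3 was not called, and its log2 fold change with LPS was 0.28, or -0.42 and called lower when scaled to total reads.

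Of the 7 arginine methyltransferases, Prmt2 rose with LPS, and Prmt3, Prmt5, Prmt7 and Prmt9 fell. Prmt9, a type II enzyme that acts on a splicing factor, had 986, 570.2 and 1031 normalized reads in LPS with NCT503, 218, 125 and 159 in LPS and 344, 305 and 284 in control. The groups did not overlap, lowest in LPS and highest in LPS with NCT503. Prmt9 fell with LPS (log2 fold change -0.92 ± 0.22, adjusted p = 0.00518), rose with NCT503 against LPS (2.35 ± 0.27, adjusted p = 7.06e-05) and exceeded control (1.43 ± 0.23, adjusted p = 0.000653). Prmt3, a cytosolic enzyme that methylates a ribosomal protein, had 198, 229.9 and 214 in LPS with NCT503, 127, 83.2 and 62.9 in LPS and 172, 172 and 178 in control. Its LPS libraries lay below all others, with a log2 fold change of -0.98 ± 0.25, adjusted p = 0.00875 for LPS against control, 1.28 ± 0.27, adjusted p = 0.0035 for LPS with NCT503 against LPS, and no call for LPS with NCT503 against control (0.30 ± 0.17, adjusted p = 0.196). Prmt7, which makes monomethylarginine, had 139, 271 and 171 in LPS with NCT503, 149.8, 143 and 125 in LPS and 394, 491 and 583 in control. Prmt7 fell with LPS (log2 fold change -1.79 ± 0.19, adjusted p = 1.79e-05) and remained lower than control with NCT503 (-1.37 ± 0.25, adjusted p = 0.00164), where replicate 2 was again apart from the other replicates.

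Prmt1, the main source of asymmetric dimethylarginine, had 497, 732 and 530.3 normalized reads in LPS with NCT503, 735, 1056 and 919 in LPS and 591, 652 and 756 in control. Its LPS range overlapped control. Prmt1 was not called with LPS (0.43 ± 0.17, adjusted p = 0.065, and 0.0152 without LPS replicate 1), and it was lower with NCT503 than in LPS (-0.63 ± 0.21, adjusted p = 0.0408), with adjusted p values of 0.152 without LPS replicate 2, 0.127 without LPS replicate 3, 0.149 without LPS with NCT503 replicate 1 and 0.143 without LPS with NCT503 replicate 3. The Prmt1 fall was not called at -0.38 scaled to total reads (adjusted p = 0.175) and -0.59 quantile normalized (adjusted p = 0.052). Against control, Prmt1 in LPS with NCT503 stood at -0.20 ± 0.19, adjusted p = 0.441. It passed as lower at -0.65 scaled to total reads (adjusted p = 0.0156). Prmt5, the main source of symmetric dimethylarginine, had 212, 354 and 237 in LPS with NCT503, 302, 237 and 257 in LPS and 428, 457 and 482 in control. Control libraries were the highest, and Prmt5 fell with LPS (log2 fold change -0.78 ± 0.16, adjusted p = 0.00249) and did not differ by the test between LPS with NCT503 and LPS (-0.015 ± 0.23, adjusted p = 0.967, 95% interval -0.52 to 0.49). Prmt2, of low activity, rose with LPS by 1.14 ± 0.17, adjusted p = 0.000214 and was not called with NCT503 against LPS. Prmt6, a nuclear enzyme, was higher with NCT503 than in LPS by 0.69 ± 0.20, adjusted p = 0.0207, with adjusted p values of 0.0717 without LPS replicate 3, 0.0728 without LPS with NCT503 replicate 1 and 0.0577 without LPS with NCT503 replicate 3. The Prmt6 rise was not called at 0.55 quantile normalized (adjusted p = 0.0556). It passed as higher with LPS at 0.61 quantile normalized (adjusted p = 0.0379). Against control its rise of 1.003 ± 0.20, adjusted p = 0.0028 in LPS with NCT503 was not called at 0.56 scaled to total reads (adjusted p = 0.0662). Antisense C130013H08Rik covers 23.4% of Prmt6 exons.

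DNA methyltransferases divide into Dnmt1, which copies methylation after replication, and the de novo enzymes. Dnmt1 had 1278, 1329 and 1125 normalized reads in LPS with NCT503, 1056, 1103 and 1297 in LPS and 2442, 2644 and 3017 in control. Control libraries were all higher than treated ones, and the treated groups overlapped. Dnmt1 fell with LPS (log2 fold change -1.22 ± 0.15, adjusted p = 5.72e-05), was not called between LPS with NCT503 and LPS (0.11 ± 0.17, adjusted p = 0.635) and stood below control with NCT503 (-1.12 ± 0.15, adjusted p = 0.000202). Dnmt3a, at chr12:3806007-3914443 in mm10, had 8341, 9130.2 and 8457 in LPS with NCT503, 2402, 2257 and 2276 in LPS and 4145, 4620.5 and 4275 in control. The 3 groups did not overlap, with LPS lowest, control between and LPS with NCT503 highest. Dnmt3a fell with LPS (log2 fold change -0.90 ± 0.14, adjusted p = 0.000234), rose with NCT503 against LPS (1.90 ± 0.15, adjusted p = 5.6e-06) and exceeded control (0.99 ± 0.14, adjusted p = 0.000221). Per kb, Dnmt3a stood to Dnmt1 as 3.09 ± 0.224 in LPS with NCT503, 0.898 ± 0.115 in LPS and 0.718 ± 0.079 in control. The antisense RNA Dnmt3aos, whose exons share 133 bases with those of Dnmt3a (0.799%), had 234, 311 and 251 normalized reads in LPS with NCT503, 15.0 to 30.002 in LPS and 99.1, 100.1 and 99.4 in control, and its part in the values of Dnmt3a was not tested.

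Dnmt3b, the other de novo enzyme of somatic cells, lies at chr2:153649450-153687730, and Dnmt3c, a rodent copy of Dnmt3b known for silencing retrotransposons in the male germ line, at chr2:153696652-153729907. Dnmt3c had 13.3, 12.5 and 9.74 normalized reads in LPS with NCT503, 54.1, 105 and 97 in LPS and 2.05, 3.5 and 1.6 in control. The 3 groups did not overlap, with LPS highest and control lowest. Dnmt3c rose with LPS (log2 fold change 4.67 ± 0.40, adjusted p = 3.13e-06), was lower with NCT503 than in LPS (-2.69 ± 0.34, adjusted p = 0.000141) and was higher than control (1.95 ± 0.44, adjusted p = 0.00548). Dnmt3b had 57.1, 68.7 and 64.9 in LPS with NCT503, 16.1, 28.6 and 18.4 in LPS and 41, 49.7 and 27.2 in control. Its libraries of LPS with NCT503 lay above the other 6, and LPS overlapped control. Dnmt3b was not called with LPS (-0.87 ± 0.35, adjusted p = 0.0664, and 0.0455 without control replicate 3 and 0.0391 without LPS replicate 2) and was higher with NCT503 than in LPS (1.58 ± 0.31, adjusted p = 0.00265). It was called lower with LPS at -0.97 with TMM scaling (adjusted p = 0.0471), -1.55 scaled to total reads (adjusted p = 0.0059), -0.87 with all 9 libraries in 1 fit (adjusted p = 0.0409) and -0.96 with edgeR (adjusted p = 0.0458). Against control, Dnmt3b in LPS with NCT503 stood at 0.72 ± 0.29, adjusted p = 0.069. It passed as higher at 0.78 quantile normalized (adjusted p = 0.0412). As Dnmt3c is a copy of Dnmt3b, the authors' counting may have split reads of stretches alike in both, which was not tested, and both values are uncertain. The ratio of Dnmt3c to Dnmt3b per kb was 0.432 ± 0.0951 in LPS with NCT503, 9.42 ± 2.38 in LPS and 0.137 ± 0.0235 in control. Dnmt3l, the inactive partner of the de novo enzymes, had 74.4, 63.5 and 68.2 in LPS with NCT503, 77.2, 94.1 and 85.2 in LPS and 18.4, 18.9 and 28.8 in control, and it rose with LPS (log2 fold change 1.94 ± 0.28, adjusted p = 0.000187) and was not called between LPS with NCT503 and LPS (adjusted p = 0.35).

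The Tet dioxygenases oxidize 5-methylcytosine, and Tet2 is the form best known from blood cells. In these libraries Tet3 was the more abundant. The ratio of Tet2 to Tet3 per kb was 0.687 ± 0.236 in LPS with NCT503, 0.225 ± 0.0824 in LPS and 0.128 ± 0.0325 in control (SD, n = 3 each). Tet2 had 1404, 648 and 1439 normalized reads in LPS with NCT503, 1083, 548 and 683 in LPS and 487, 456 and 276 in control. Treated libraries were all above control, and replicate 2 of LPS with NCT503 was within the LPS range. Tet2 rose with LPS (log2 fold change 0.91 ± 0.27, adjusted p = 0.018, or 0.21 and not called scaled to total reads), with adjusted p values of 0.0891 without control replicate 3, 0.0596 without LPS replicate 1 and 0.0549 without LPS replicate 3. Tet2 was not called between LPS with NCT503 and LPS (0.56 ± 0.32, adjusted p = 0.209, and 0.0119 without LPS with NCT503 replicate 2), and it stood above control with NCT503 (1.47 ± 0.33, adjusted p = 0.00662). With replicate number as a block, Tet2 passed as higher with NCT503 than in LPS (adjusted p = 0.0101). Tet3 had 1906, 1483 and 1583 in LPS with NCT503, 3409, 3559 and 3265 in LPS and 3283, 3085 and 3030.3 in control. The 3 libraries of LPS with NCT503 were below all others. Tet3 was lower with NCT503 than in LPS (log2 fold change -1.05 ± 0.17, adjusted p = 0.000633) and than in control (-0.93 ± 0.15, adjusted p = 0.000675), and it was not called with LPS (0.13 ± 0.13, adjusted p = 0.475; -0.57 and called lower when scaled to total reads or, at -0.58, quantile normalized). Tet1 had 5.1, 2.08 and 4.33 in LPS with NCT503, 12.7, 4.09 and 15.7 in LPS and 8.88, 2.1 and 5.61 in control, and it was not called with all libraries (-1.15 ± 0.56, adjusted p = 0.14 for LPS with NCT503 against LPS, and 0.049 without LPS replicate 2).

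Methyltransferases and demethylases were then set beside each other as classes. With LPS the median log2 fold change was -0.38 over 33 methyltransferases and 0.32 over 20 demethylases (-1.08 and -0.25 scaled to total reads), against -0.054 over all genes tested. With NCT503 against LPS the medians were 0.11 and 0.068, against 0.078 over all genes, and with NCT503 against control they were -0.030 and 0.32 (-0.48 and -0.14 scaled to total reads), against 0.046. The class difference was thus -0.69 for LPS against control, 0.046 for LPS with NCT503 against LPS and -0.35 for LPS with NCT503 against control. These are descriptions with no test. In single libraries, the summed reads per kb of methyltransferases stood to those of demethylases as 1.11, 1.36 and 1.06 in LPS with NCT503, 1.31, 1.44 and 1.38 in LPS and 1.83, 2.03 and 2.08 in control. All treated libraries lay below all control libraries, and LPS with NCT503 overlapped LPS only through its replicate 2. The part of gene length in these ratios and in those by mark was not tested. Within classes both directions occurred in every comparison. Abundant genes weigh most in such sums, which in the treated groups were Kdm6b and Kmt5a and in control Dnmt1 and Kdm5c.

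By mark, the ratio of methyltransferases to demethylases differed in its pattern over the groups. For H3K4 it was 0.8 ± 0.0529 in LPS with NCT503, 1.43 ± 0.215 in LPS and 1.49 ± 0.088 in control, with LPS and control overlapping and LPS with NCT503 below both. For H3K9 it was 0.161 ± 0.0299, 0.251 ± 0.0388 and 0.369 ± 0.00331 in the same order, with no overlap. This ratio covers Setdb1, Setdb2, Suv39h1 and Suv39h2 only, as the name rule leaves out Ehmt1 and Ehmt2. Ehmt2, given below, averaged more normalized reads than any of them in every group and rose with LPS. For H3K36, in that order, it was 0.521 ± 0.117, 0.260 ± 0.0287 and 0.380 ± 0.0624, lowest in LPS, and LPS with NCT503 overlapped control. Its only methyltransferase is Setd2, which was not called in any comparison with all libraries, over Kdm2a and Kdm2b. The name rule leaves out Nsd3, given below. For DNA, with Dnmt1, Dnmt3a, Dnmt3b and Dnmt3c over the 3 Tet genes, it was 4.37 ± 1.30 in LPS with NCT503, 1.35 ± 0.175 in LPS and 3.02 ± 0.393 in control, again lowest in LPS (SD, n = 3 each). Every library of LPS with NCT503, at 3.50 to 5.87, lay above every control library, at 2.605 to 3.39.

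**Figure D3:**
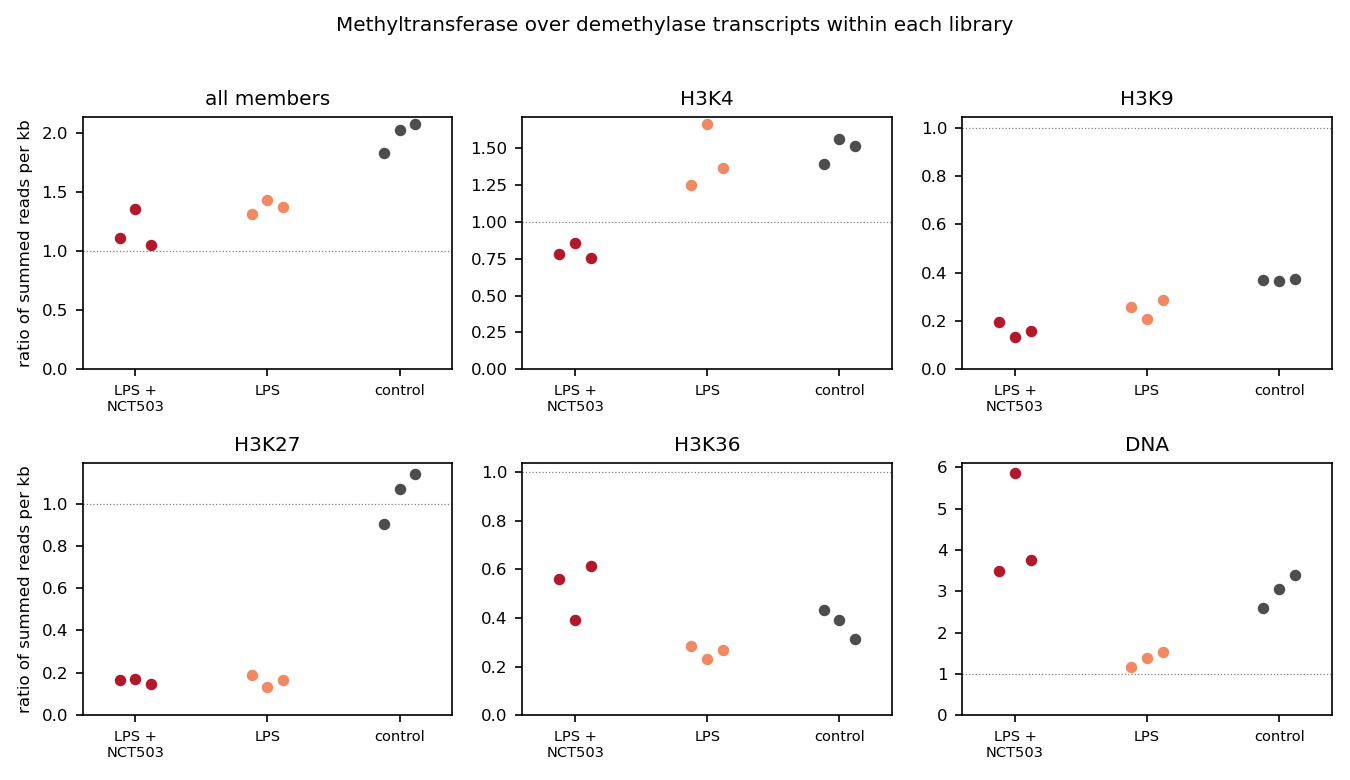
Ratio of summed reads per kb of methyltransferases to demethylases (y axes, linear from 0) by mark in each library, with LPS with NCT503, LPS and control from left to right, a point for each library and a dotted line at a ratio of 1. The H3K27 ratio is near 0.16 in both treated groups and 1.04 in control, and the DNA ratio is lowest in LPS.

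Methylation enzymes outside the name rule were read from a second list. Of 18 other methyltransferases tested, 4 were higher and 6 lower with LPS, and of 19 tested, 7 were higher and 2 lower with NCT503 than in LPS. That is 55.6% and 47.4%, against 41.8% and 32.6% of all genes tested. Of genes with a mean of at least 30 reads, 56.7% and 45.3% were called, so this list was near genes of that depth. Smyd3 averaged 171 normalized reads in LPS with NCT503, 31.5 in LPS and 166 in control, with log2 fold changes of 2.42 ± 0.25, adjusted p = 3.2e-05 with NCT503 against LPS and -2.37 ± 0.24, adjusted p = 1.28e-05 with LPS. Ehmt2, the G9a enzyme of H3K9, averaged 3766 normalized reads in LPS with NCT503, 9471 in LPS and 5208 in control, with changes of -1.33 ± 0.20, adjusted p = 0.00039 and 0.86 ± 0.17, adjusted p = 0.00199. Ehmt1, its partner, fell with LPS (-1.11 ± 0.19, adjusted p = 0.000553), and Nsd3, of H3K36, rose (1.08 ± 0.16, adjusted p = 0.000196). Of 12 other demethylases and related oxygenases, 5 were higher and 3 lower with LPS, among them Jmjd6 (2.005 ± 0.14, adjusted p = 4.94e-07) and Riox2 (1.81 ± 0.17, adjusted p = 5.34e-06), and of 11 tested with NCT503 against LPS 2 were higher and 3 lower. These shares were 66.7% with LPS and 45.5% with NCT503 against LPS.

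Partners of the enzymes were called about as often as other genes. Of 32 subunits and partners, 3 were higher and 12 lower with LPS, which is 46.9% against 41.8% of all genes tested and 56.7% of those with a mean of at least 30 reads. With NCT503 against LPS 7 were higher and 5 lower, which is 37.5% against 32.6% and 45.3%, and with NCT503 against control 6 were higher and 11 lower, which is 53.1% against 40.4% and 54.6%. Jarid2, which recruits PRC2, rose with LPS (1.64 ± 0.16, adjusted p = 7.89e-06), as did the deacetylase Hdac1 (1.67 ± 0.15, adjusted p = 3.76e-06). Uhrf1, which brings Dnmt1 to replicated DNA, fell with LPS (-1.13 ± 0.22, adjusted p = 0.00162) and was lower again with NCT503 than in LPS (-0.93 ± 0.22, adjusted p = 0.00695), with means of 137 normalized reads in LPS with NCT503, 264 in LPS and 588 in control. Paxip1, a partner of Kmt2c and Kmt2d, rose with NCT503 against LPS (2.36 ± 0.18, adjusted p = 3.99e-06), and Men1, a partner of Kmt2a and Kmt2b, fell (-1.82 ± 0.22, adjusted p = 0.000103). The PRC2 partners Mtf2 (1.42 ± 0.24, adjusted p = 0.000896) and Phf19 (1.46 ± 0.22, adjusted p = 0.000394) were higher with NCT503 than in LPS.

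Enzymes that supply the cofactors were read in the same way. Of 15 methionine cycle and related genes tested with LPS, 2 were higher and 7 lower. That is 60%, against 41.8% of all genes tested and 56.7% of those with a mean of at least 30 reads. The summed level of the 16 measured genes, in which abundant genes weigh most, went the other way and was highest in LPS. It was 10501 to 12416 normalized reads in LPS with NCT503, 19971 to 21425 in LPS and 10235 to 10899 in control. Mtr, methionine synthase, averaged 275 normalized reads in LPS with NCT503, 77.6 in LPS and 646 in control, with log2 fold changes of 1.80 ± 0.25, adjusted p = 0.000236 with NCT503 against LPS and -3.03 ± 0.20, adjusted p = 4.15e-07 with LPS. Mat2a, which makes S-adenosylmethionine, averaged 904 normalized reads in LPS with NCT503, 1697 in LPS and 913 in control, with changes of -0.90 ± 0.20, adjusted p = 0.00545 and 0.88 ± 0.17, adjusted p = 0.00147. With NCT503 against LPS 4 of 15 were higher and 2 lower, Mtrr, the reductase that reactivates methionine synthase (1.69 ± 0.23, adjusted p = 0.000225), among the first. That is 40%, against 32.6% of all genes tested and 45.3% of those with a mean of at least 30 reads. Of 11 genes of alpha-ketoglutarate supply none was higher and 8 were lower with LPS, Idh1 (-2.74 ± 0.15, adjusted p = 7.94e-08) with the smallest p, and with NCT503 against LPS 2 were higher, one of them Got1 (2.41 ± 0.18, adjusted p = 3.35e-06), and none lower. The share called in this list was 72.7% with LPS, against 41.8% of all genes tested and 56.7% of those with a mean of at least 30 reads. With NCT503 against LPS it was 18.2%, against 32.6% and 45.3%. Against control, 2 of the 11 were higher and 8 lower in LPS with NCT503, which is 90.9% against 40.4% and 54.6%. The median log2 fold change of the list was -0.57 with LPS and -0.56 in LPS with NCT503 against control. These are transcript values, and neither metabolites nor methylation were measured.

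The proliferation list moved with some of these results. Of its 12 genes none was higher and 10 were lower with LPS, with summed levels of 6552 to 7687 normalized reads in LPS with NCT503, 6040 to 7045 in LPS and 9326 to 14155 in control. The share called was 83.3%, against 41.8% of all genes tested and 56.7% of those with a mean of at least 30 reads. Bub1b (-2.40 ± 0.20, adjusted p = 2.83e-06), Mcm3 (-1.40 ± 0.16, adjusted p = 3.84e-05), Mcm2 (-1.98 ± 0.25, adjusted p = 5.66e-05) and Ccna2 (-1.78 ± 0.22, adjusted p = 6.25e-05) had the smallest p. Dnmt1, Uhrf1, Ezh2 and Suv39h2 were lower with LPS in the same libraries, whereas Kmt5a was higher. With NCT503 against LPS, 3 were higher, among them Mki67 (2.14 ± 0.39, adjusted p = 0.00165), and 3 lower, among them Cdk1 (-1.36 ± 0.26, adjusted p = 0.0019). Here the share was 50%, against 32.6% of all genes tested and 45.3% of those with a mean of at least 30 reads. In LPS with NCT503 against control, 1 of the 12 was higher and 9 were lower, which is 83.3% against 40.4% and 54.6%. In that comparison Dnmt1 and Suv39h2 were lower, Kmt5a was higher and Ezh2 was not called (log2 fold change -0.030). The part of proliferation in the members' values was not tested.

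Gene length moved with the comparisons too. Among genes with a mean of at least 30 reads, those with under 2000 bases of exon had a median log2 fold change of -0.24 and those of 12000 or more 0.49 for LPS with NCT503 against LPS, and 0.19 and -0.19 for LPS against control. Members are long, with a median of 6824 bases (6125 in methyltransferases and 8304 in demethylases), against 4177 over those genes. The libraries of 1 group differed in the same respect. In replicate 2 of LPS with NCT503 the genes over 8000 bases lay at -0.22 and those under 2000 bases at 0.16 around their group means, and LPS replicate 1, at 0.17 and -0.21, and control replicate 1, at 0.13 and -0.22, were shifted the other way. Of the 22 members over 8000 bases, 17 were lowest of their group in replicate 2 of LPS with NCT503, among them Kmt2a, Setd2, Kdm7a and Tet2, and 4 were highest there, among them Dnmt3a, Kmt2d and Setd1b. Relative to the median of genes of like length, the class medians were -0.042 and -0.038 for methyltransferases and demethylases in LPS with NCT503 against LPS, and -0.32 and 0.46 in LPS against control. With NCT503 against LPS, the changes relative to genes of like length were 0.27 for Kmt2a, 0.42 for Setd2, 0.82 for Kdm7a and 0.079 for Tet2. Without that reference they were 0.75, 0.68, 1.08 and 0.56. Dnmt3a stood at 1.42 in place of 1.90, Kmt2d at -1.48 in place of -0.99 and Setd1b at -2.55 in place of -2.06. The part of length in single members was not tested.

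**Figure D4:**
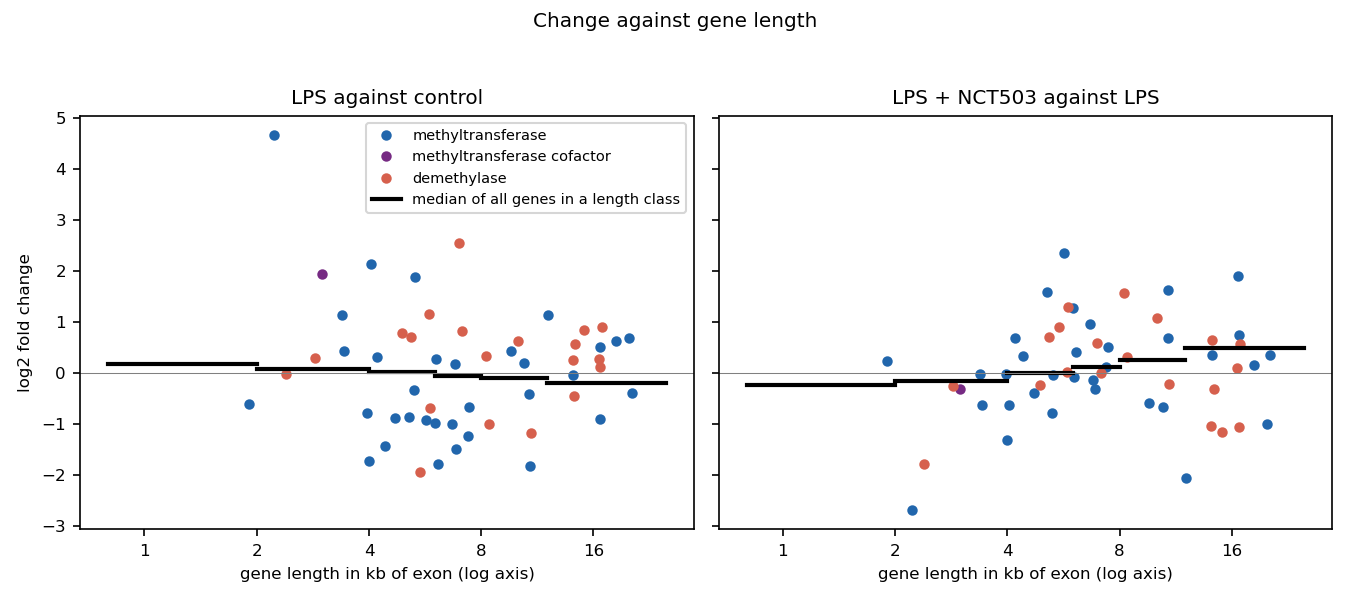
Log2 fold change of the members (points, blue for methyltransferases, purple for the cofactor, red for demethylases) against exon length in kb (x axis, log scale) in LPS against control on the left and LPS with NCT503 against LPS on the right, with black lines giving the median of all genes with a mean of at least 30 reads in each length class. In LPS with NCT503 against LPS the lines climb with length, -0.24 for the shortest class and 0.49 for the longest, and members lie on both sides of them.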

How the data were processed

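Messenger RNA of 9 libraries, 3 per group, was sequenced. Reads were aligned with TopHat2 to mm10, per the submitters' processing notes, while for the counter, annotation and strand the sources used here give nothing. Of 2 deposited tables, 1 per pair of groups, per the file headers and values each holds signal per library (reads divided by a size factor), a log2 fold change and p-values with their adjusted form. All values (100%) were multiples of 1 read (tolerance 0.001), so reads were recovered, and the LPS libraries had the same reads in both tables over 21434 shared genes. The unit therefore differed from raw counts, and the test planned for normalized reads was used, with edgeR on recovered reads as an alternative.

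The test was limma 3.58.1 (eBayes with trend and robust, R 4.3.3) on log2(normalized reads + 1) for genes whose mean reached 1 in either group, two-sided, with Benjamini-Hochberg adjustment over all genes tested, and called at an adjusted p under 0.05. This scale understates changes of low genes, and ± beside a log2 fold change is its SE. The first 2 comparisons used the deposited scale. The third and all printed levels used 1 median-of-ratios scale over the 9 libraries. Positions of 54 of 54 members equal GENCODE M21, and exon lengths of 49 of 54 do. Levels per kb use the deposited lengths, and overlaps those of GENCODE M21. Exons of 24 members overlap another gene, and without a strand setting such reads cannot be told apart. Non-coding genes of the same names (Dnmt3aos, Kdm6bos, a pseudogene of Dnmt3l and Kdm4dl) were left out by type. The members, classes, marks and lists were chosen with earlier results of these data known. Members named in full were those called with a log2 fold change of at least 1 and a mean of at least 30 reads in a group, at most 12 per comparison, and 15 named whatever their values. Up to 4 called genes of the smallest p per list could be named, and Kdm6bos, Dnmt3aos, Mtf2, Idh1, Got1 and the members given in a clause were chosen after their values were seen, as were the printed promoters. By the adjusted p in the authors' deposited tables, all 54 members had the same call as here for LPS against control and 53 of 54 for LPS with NCT503 against LPS, Setd2 being called higher there (adjusted p = 0.0234). The fits were tested on simulated data. Alternatives were a pseudocount of 0.1, other filters, scalings and tools, a fold minimum, all libraries in 1 fit, leaving out each library and, chosen after seeing the data, changes relative to genes of like length.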

Additional observations from a re-analysis of the deposited data

How the results depend on the processing

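Calls of single members rested most on scaling and on single libraries. Scaled to total reads (CPM), LPS against control gave 8 higher members, and members whose sign turned were Kmt2d (-0.016), Kdm2a (-0.14), Setd5 (-0.068), Kmt2a (-0.19), Kmt2b (-0.26), Kdm7a (-0.066), Setd3 (-0.42), Kdm3b (-0.44), Setd1a (-0.52) and Tet3 (-0.58); quantile normalized, Kmt2d (-0.13), Kmt2b (-0.17) and Tet3 (-0.58) turned. CPM moved the median of all genes by -0.63, 0.23 and -0.42 in the 3 comparisons, and LPS with NCT503 against LPS then had 7 lower members. The difference of class medians for LPS against control was -0.83 with a pseudocount of 0.1 and with CPM, -0.63 quantile normalized, -0.76 with edgeR, -0.78 relative to genes of like length, and -0.89 to -0.66 leaving out 1 library, always below 0; for LPS with NCT503 against LPS it lay on either side of 0. With a log2 fold change of at least 1, LPS against control had 8 higher and 8 lower members (11 methyltransferases and 4 demethylases), LPS with NCT503 against LPS 8 and 6 (8 methyltransferases), and LPS with NCT503 against control 9 demethylases. The share of all genes passing this fold minimum was not computed. Leaving out 1 library, LPS against control had 15 to 17 higher and 15 to 19 lower members (19 to 24 methyltransferases, 9 to 11 demethylases), LPS with NCT503 against LPS 8 to 19 and 7 to 10 (9 to 18 and 6 to 11), and LPS with NCT503 against control 16 to 23 and 12 to 15 (16 to 21 and 12 to 16). The shares of all genes called were then 31.8% to 42.7%, 22% to 36.8% and 29% to 45.5%, against 41.8%, 32.6% and 40.4% with all libraries. Members losing a call in at least 1 of these settings numbered 7, 11 and 5. The labels do not say that replicate numbers pair the libraries, so numbers were not used as pairs. Deviations of same-numbered libraries had correlations of 0.40, 0.34 and -0.11 between LPS with NCT503 and LPS. They were 0.18, 0.084 and -0.027 between LPS and control, and 0.029, -0.16 and -0.22 between LPS with NCT503 and control. These values do not settle the pairing. With a replicate block, 4786 genes were higher and 4928 lower in place of 4089 and 4266 for LPS against control. The counts were 4251 and 3935 in place of 3351 and 3098 for LPS with NCT503 against LPS. For LPS with NCT503 against control they were 4128 and 3970 in place of 4134 and 3927. With the block, Prmt1 passed as higher and Dnmt3b, Setd2, Kmt2c and Kdm5a as lower with LPS. Setd2, Kdm5a and Tet2 passed as higher and Setdb2 as lower with NCT503 against LPS, and Kdm4c as higher than control with NCT503. Between LPS with NCT503 and LPS, Setd2 did not pass in the test used and passed with edgeR, DESeq2, CPM scaling, all 9 libraries in 1 fit, a replicate block and on leaving out LPS with NCT503 replicate 2. The cause of this difference was not tested. Depth limits Tet1 and Kdm4d.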
